A study of Homo sapiens with 2 samples.

Results

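The 40 genes described here act in the G2 phase and in mitosis. They comprise 11 regulators of mitotic entry and exit, 11 genes of the kinetochore and its checkpoint, 8 spindle kinesins and spindle-binding proteins, 7 genes of cytokinesis and 3 genes of chromosome structure and helicase function. They were listed by name and kept where they had at least 50 UMIs (unique molecular identifiers, each marking 1 captured RNA molecule) over both libraries. All 40 passed, as did 12128 of the 36601 genes in the files, which are called the measured genes here. Single-cell RNA was profiled in 1 library of untreated control cells and in 1 library of cells given SP11, which the study describes as an HSP90 inhibitor, at 0.8 µM for 48 h. Both libraries are labelled MOLT4, an established human line of T-cell acute lymphoblastic leukemia. With 1 library per group there was no replicate check and no test. Each interval below is a 95% interval for counting error only, and each value compares these libraries, not the treatments.

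Mitosis is driven by cyclin-dependent kinase 1 bound to its cyclins. CDC25 phosphatases, PLK1 and the Aurora kinases help it to switch on, and it is switched off when the anaphase-promoting complex, with its activator CDC20, marks cyclin B and securin for destruction. Kinetochores join the chromosomes to spindle microtubules and hold that complex in check until every chromosome is attached, kinesins and microtubule-binding proteins build the spindle, and the central spindle then directs the contractile ring that divides the cell. Transcripts of these genes accumulate in G2 and mitosis, in part through promoters that hold a short element called the cell cycle genes homology region (CHR).

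In all, 19512669 UMIs over 1076 barcodes were deposited for control and 9561360 UMIs over 864 barcodes for SP11, and filtering left 1053 and 852 cells. The median depth per kept cell was 17711 UMIs in control and 10488.5 in SP11, and the median mitochondrial share was 8.94% and 5.51%. The label was checked against marker genes. The 20 T-lineage markers held 76 UMIs in control and 19 in SP11, with 10 of them at 0 in both libraries, among them CD3D, CD3G, CD7, TRBC1, TRBC2 and BCL11B. The 14 myeloid markers summed to 2892 and 2790.1 CPM, where CPM is the UMIs of a gene divided by all UMIs of the library and scaled to 1e6, and 10 of them exceeded 10 CPM in control and 11 in SP11. The cells are therefore named by their library below and not as T cells. The libraries shared 114 cell barcodes. Cells with the same barcode had expression profiles with a median correlation of 0.0064 across 3000 genes, against 0.0035 for other pairs of cells, so they were kept, and the main counts were also taken without them.

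In all kept cells the mitotic genes did not move as a block. Relative to all UMIs of the library, 5 of the 40 genes were at least 1.5-fold higher in SP11, where 10.7% of the 12128 measured genes were, and 7 were at least 1.5-fold lower, where 38.4% of measured genes were. The other 28 lay between these limits. CDC20, BIRC5, PLK1, CDC25B and CKAP2 were higher. CDC25C, ANLN, NUF2, CDK1, ECT2, BUB1B and PIF1 were lower. These 12 kept their direction under every alternative processing tried, and without the cells of shared barcodes 6 genes were higher and 6 lower, as KIF20A passed the limit at 0.62 and PIF1 no longer did at -0.54. The median log2 ratio of the 40 genes was 0.0091, against -0.35 over all measured genes. Their summed level was 4144 CPM in control and 4522 in SP11, giving a log2 ratio of 0.13 (0.11 to 0.14). At the stricter limit of 2-fold, 3 genes were higher (CDC20, BIRC5 and PLK1), where 3.88% of measured genes were, and 2 were lower (CDC25C and ANLN), where 22.2% were.

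Because the median gene lay below 0, the scale decides many of the smaller differences. Scaling by TMM moved every log2 ratio up by 0.34 and scaling by DESeq2 size factors moved it up by 0.36. Relative to the median gene, 13 mitotic genes passed 1.5-fold upward and 2 downward, where 22.5% and 24.3% of measured genes did. The 2 that stayed lower on that scale were CDC25C and ANLN. The sign of 26 of the 40 ratios was the same under all alternatives. The other 14 were CENPA, CENPE, CENPF, CKAP5, HMMR, KIF11, KIF14, KIF20B, KIF2C, MKI67, NDC80, NUSAP1, TOP2A and UBE2C, and no direction is read from them.

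**Figure D1:**
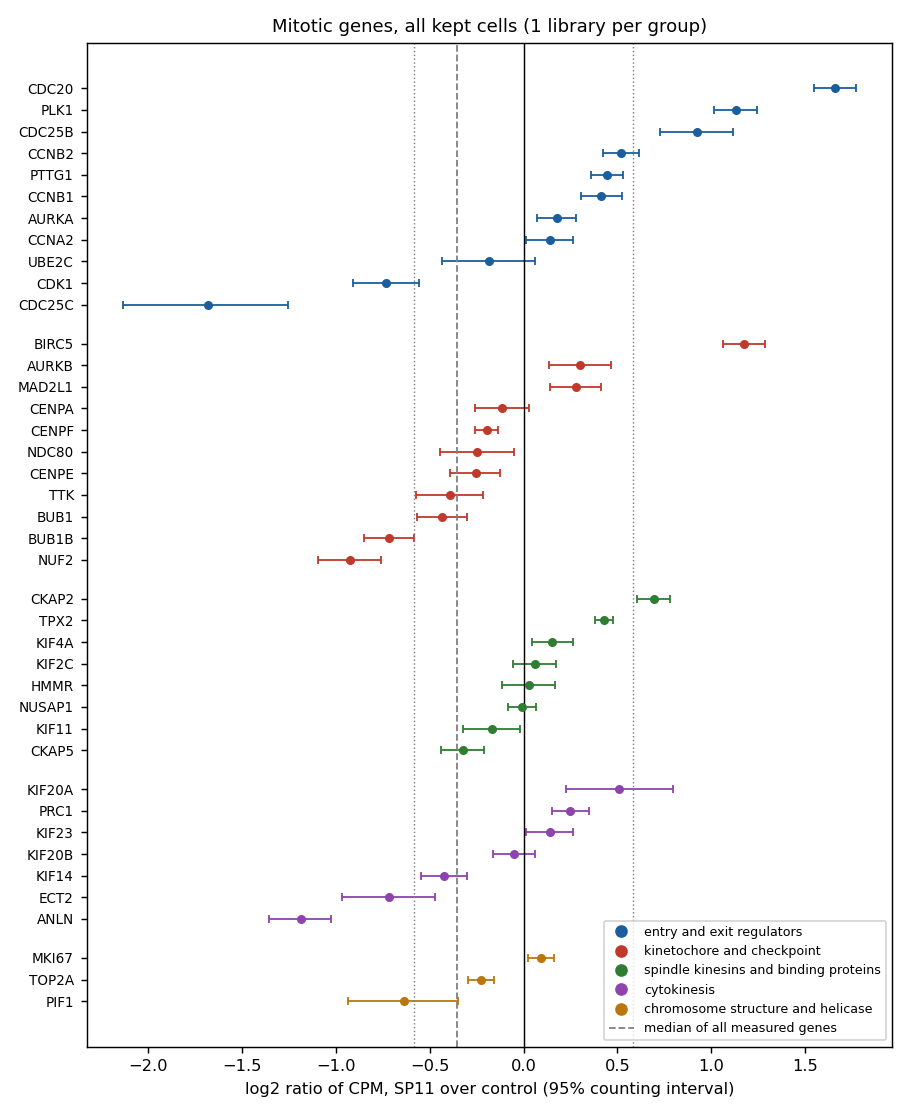
Log2 ratio of CPM in SP11 over control for each of the 40 mitotic genes in all kept cells, grouped by role, with bars for the 95% counting interval. Dotted lines mark 1.5-fold and the dashed line marks the median of all measured genes at -0.35. CDC20 lies highest at 1.66 and CDC25C lowest at -1.68, both among the entry and exit regulators.

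The promoters of genes at both ends of this range held the same element. The CHR was searched as TTTGAA on either strand, which on the opposite strand reads TTCAAA, in windows from 250 bases before to 50 bases after each RefSeq start (GRCh38.p14). Of the 40 genes, 35 were found in the promoter table, and AURKA, BIRC5, TPX2, TTK and UBE2C were not. The letters occurred in windows of 25 of the 35 genes (71.4%), in 52 of 108 other genes of mitosis (48.1%) and in 1 of 23 S phase genes (4.35%). Over all 35116 promoter windows 15.2% held them, and 62.2% of the 45 windows of the listed genes did. The CCAAT box, searched as CCAAT or ATTGG, was found for 28 of the 35 genes (80%) and for 39.7% of all genes in the table. The variant TTCGAA, which reads the same on both strands, was found for 3 of the 35 genes (8.57%) and for 1.82% of all genes in the table. A match was counted wherever it fell, also where motifs overlapped. The 120 bases before the start are shown 5′ to 3′ for 6 genes that hold the element there, 2 that were higher in SP11 (CDC20 and PLK1), 1 between the limits (CCNB2) and 3 that were lower (ANLN, CDC25C and PIF1), with the CHR letters in capitals. They were chosen with the ratios known.
CDC20: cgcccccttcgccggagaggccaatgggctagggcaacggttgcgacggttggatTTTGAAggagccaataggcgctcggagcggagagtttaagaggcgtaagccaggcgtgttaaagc
PLK1: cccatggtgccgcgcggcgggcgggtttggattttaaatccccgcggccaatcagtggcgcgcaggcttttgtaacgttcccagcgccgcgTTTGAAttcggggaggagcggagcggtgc
CCNB2: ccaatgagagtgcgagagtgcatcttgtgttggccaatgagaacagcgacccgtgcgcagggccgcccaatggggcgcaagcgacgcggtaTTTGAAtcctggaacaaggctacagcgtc
ANLN: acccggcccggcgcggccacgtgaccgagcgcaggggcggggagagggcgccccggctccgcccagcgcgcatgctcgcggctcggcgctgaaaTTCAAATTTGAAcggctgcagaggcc
CDC25C: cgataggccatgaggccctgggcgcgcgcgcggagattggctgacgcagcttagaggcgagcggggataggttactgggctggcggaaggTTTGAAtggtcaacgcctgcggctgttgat
PIF1: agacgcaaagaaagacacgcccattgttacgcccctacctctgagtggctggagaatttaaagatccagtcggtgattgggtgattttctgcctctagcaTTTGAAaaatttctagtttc

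The windows printed are chr1:43358861-43358980 (plus strand) for CDC20, chr16:23678769-23678888 (plus) for PLK1, chr15:59105026-59105145 (plus) for CCNB2, chr7:36389742-36389861 (plus) for ANLN, chr5:138331805-138331924 (minus) for CDC25C and chr15:64825648-64825767 (minus) for PIF1. In the bases printed, the element began 65 bases before the start in CDC20, 29 in PLK1, 29 in CCNB2, 30 in CDC25C and 20 in PIF1. ANLN held it on both strands, side by side, from 26 bases before its start. Outside the bases printed, CDC20 also held TTCAAA from 178 bases before its start. CDC25C had another RefSeq start, and its letters lay 43 bases after that one. The 25 genes with the letters had a median log2 ratio of -0.17 and ran from -1.68 (CDC25C) to 1.66 (CDC20), with 2 higher and 7 lower. The 10 genes without them had a median of 0.36, with 2 higher and 0 lower. Of all measured genes, 10.7% were higher and 38.4% were lower. All 7 lower genes held the letters, and so did 2 of the 4 higher genes in the table. These sets also differ in intronic length, which the ratios followed (below). All genes without the letters except BUB1 and CENPE had at most 24304 intronic bases. When genes of like intronic length were used as the reference, NUF2, BUB1B and ECT2 were no longer past the limit. The part of intronic length in the difference between the sets was not tested. A match is a description of these letters and not a site of binding, and 10.6% of the windows of all measured genes held them.

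The regulators of entry and exit held the widest spread of any group. Their median log2 ratio was 0.41 and their sum went from 769.7 CPM in control to 1097 CPM in SP11, giving a log2 ratio of 0.51 (0.47 to 0.55). Of the 11 genes, 3 were higher and 2 were lower, where 10.7% and 38.4% of all measured genes were, and 6 lay between the limits. The mitotic cyclins and their kinase parted. CCNB1, a B-type cyclin, was at 89.7 CPM in control and 119 in SP11, giving a log2 ratio of 0.41 (0.30 to 0.52). CCNB2, the other B-type cyclin, was at 109.9 and 157 CPM, 0.52 (0.42 to 0.61). CCNA2, the A-type cyclin of S phase and G2, was at 74.4 and 81.9 CPM, 0.14 (0.011 to 0.27). CDK1, the kinase that all of them bind, was at 60.9 CPM in control and 36.6 in SP11, -0.73 (-0.91 to -0.56). For each CDK1 UMI there were thus 1.47 CCNB1 UMIs in control and 3.26 in SP11, a change of 1.14 (0.94 to 1.35) on the log2 scale that does not depend on how the libraries are scaled. The same measure was 1.25 (1.05 to 1.45) for CCNB2 and 0.87 (0.65 to 1.09) for CCNA2. These pairs, like those below, were chosen with the single values known.

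The CDC25 phosphatases, which remove the inhibitory phosphates from CDK1, differed from each other. CDC25A, which belongs to the list of other genes and was named after its value was seen, had a log2 ratio of 0.11 (-0.11 to 0.33). CDC25B was at 23.2 CPM in control and 43.9 in SP11 (449 and 417 UMIs), giving a log2 ratio of 0.92 (0.73 to 1.12). CDC25C (ENSG00000158402, chr5:138285269-138338355, minus strand) was at 17.5 CPM in control and 5.47 in SP11 (340 and 52 UMIs), -1.68 (-2.13 to -1.26), the lowest of the 40 genes and a 3.21-fold difference. The UMIs of CDC25B per UMI of CDC25C went from 1.32 to 8.02. The kinases above them were not lower. PLK1 (ENSG00000166851, chr16:23677656-23690367, plus strand), the polo-like kinase that acts on CDC25C and on kinetochores, was at 63.9 and 139.7 CPM (1238 and 1327 UMIs), 1.13 (1.02 to 1.24). AURKA, the kinase of the spindle poles that activates PLK1, was at 112 and 127 CPM, 0.18 (0.074 to 0.28).

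At the exit end, CDC20 (ENSG00000117399, chr1:43358981-43363203 on the plus strand of GRCh38, GENCODE 44) had the highest ratio of the 40 genes, at percentile 99.2 of all measured genes. Its level was 56.1 CPM in control and 177 in SP11 (1086 and 1679 UMIs), giving a log2 ratio of 1.66 (1.55 to 1.77), or 3.15-fold. CDC20, PLK1 and BIRC5 had more raw UMIs in SP11 than in control, although the SP11 library held fewer UMIs in all. UBE2C, the ubiquitin-conjugating enzyme that works with the same complex, was at 23.1 and 20.3 CPM, -0.18 (-0.43 to 0.063), and the UMIs of CDC20 per UMI of UBE2C went from 2.43 to 8.70. PTTG1, or securin, which holds separase inactive until anaphase, was at 139 and 189 CPM, 0.44 (0.36 to 0.53). The PTTG1 values are uncertain because near-identical copies such as PTTG2 can share its reads.

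Among the kinetochore and checkpoint genes, 1 of 11 was higher and 2 were lower, where 10.7% and 38.4% of all measured genes were. The median log2 ratio of the group was -0.25. Their sum was 1029 CPM in control and 951 in SP11, giving a log2 ratio of -0.11 (-0.15 to -0.078) that changed sign to 0.23 with TMM scaling. The higher gene was BIRC5 (ENSG00000089685, chr17:78214186-78225636, plus strand), or survivin, a subunit of the chromosomal passenger complex and an inhibitor of apoptosis, at 63.3 CPM in control and 143 in SP11 (1227 and 1357 UMIs), 1.17 (1.06 to 1.29). AURKB, the kinase of the same complex, was at 41.5 and 51.1 CPM, 0.30 (0.13 to 0.46). The ratio of BIRC5 to AURKB UMIs went from 1.53 to 2.80, a log2 change of 0.87 (0.67 to 1.08).

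The lower kinetochore genes were NUF2 and BUB1B. NUF2, a subunit of the NDC80 complex that binds microtubules, was at 72.9 CPM in control and 38.4 in SP11, -0.92 (-1.09 to -0.76). NDC80, its partner in that complex, was at 38.5 and 32.4 CPM, -0.25 (-0.44 to -0.052), and the ratio of their UMIs changed by 0.68 (0.42 to 0.94) on the log2 scale. The complex's other subunits, SPC24 and SPC25, named after their values were seen, were at -0.17 and -0.069, so NUF2 stood apart from all 3. BUB1B, or BUBR1, which holds CDC20 in the checkpoint complex, was at 103 and 63.0 CPM, -0.71 (-0.85 to -0.58). BUB1, the checkpoint kinase, was at 88.9 and 65.8 CPM, -0.43 (-0.57 to -0.30). TTK, or MPS1, the kinase that starts checkpoint signalling, was at 49.2 and 37.5 CPM, -0.39 (-0.57 to -0.22). MAD2L1, the checkpoint protein that binds CDC20, differed in direction from these kinases, at 60.2 and 73.0 CPM, 0.28 (0.14 to 0.41). The size of this contrast depended on the processing. With DESeq2 scaling BUB1 was at -0.070, TTK at -0.030 and MAD2L1 at 0.64, and with equal weight per cell MAD2L1 was at 0.084. The UMIs of CDC20 per UMI of MAD2L1 went from 0.931 to 2.42.

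The remaining kinetochore genes lay close to each other. CENPA, the histone H3 variant of centromeres, was at 65.1 and 60.2 CPM, -0.11 (-0.26 to 0.032). CENPE, a kinetochore kinesin, was at 81.8 and 68.5 CPM, -0.26 (-0.39 to -0.12). CENPF, a large protein that builds up in G2 and binds kinetochores, was at 365 and 319 CPM, -0.20 (-0.26 to -0.13). All 3 fell between the limits, and all 3 changed sign with another scaling.

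Of the 8 spindle kinesins and binding proteins, CKAP2 was higher and none was lower, where 10.7% and 38.4% of all measured genes were, and 7 lay between the limits. Their sum was 1238 CPM in control and 1456 in SP11, 0.23 (0.20 to 0.26), and their median log2 ratio was 0.043. CKAP2, a microtubule-binding protein of the spindle, was at 125 and 202 CPM, 0.69 (0.61 to 0.78). TPX2, which nucleates spindle microtubules and activates Aurora A, was at 448 and 603 CPM, 0.43 (0.38 to 0.48). The ratio of TPX2 to AURKA UMIs changed by 0.25 (0.14 to 0.37). KIF4A, a chromosome-bound kinesin that also acts at the central spindle, was at 99.5 and 111 CPM, 0.15 (0.043 to 0.26), with counts uncertain because its near-identical copy KIF4B can share reads.

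The other spindle genes had ratios near 0. KIF2C, a kinesin that takes microtubule ends apart, was at 92.8 and 96.6 CPM, 0.059 (-0.058 to 0.17). HMMR, a spindle assembly protein, was at 62.6 and 63.8 CPM, 0.027 (-0.12 to 0.17), and NUSAP1, which bundles microtubules near chromosomes, was at 239 and 237 CPM, -0.0089 (-0.082 to 0.064). The intervals of these 3 genes hold 0 on the CPM scale. KIF11, the kinesin that pushes the spindle poles apart, was at 60.6 and 53.9 CPM, -0.17 (-0.32 to -0.018). CKAP5, a microtubule polymerase, was at 111 and 88.5 CPM, -0.32 (-0.44 to -0.21).

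Among the 7 cytokinesis genes, none was higher and 2 (28.6%) were lower, where 10.7% and 38.4% of all measured genes were. Their sum was 544 CPM in control and 488 in SP11, giving a log2 ratio of -0.16 (-0.21 to -0.11) that changed sign to 0.19 with TMM scaling. ANLN (ENSG00000011426, chr7:36389821-36453791, plus strand), or anillin, the scaffold that links the contractile ring to the membrane, was at 87.7 CPM in control and 38.5 in SP11 (1699 and 366 UMIs), -1.19 (-1.35 to -1.02), or 2.28-fold lower. ECT2, the exchange factor that activates RhoA at the division plane, was at 31.1 and 18.9 CPM, -0.72 (-0.96 to -0.47). Relative to the median gene ANLN was at -0.83 and ECT2 at -0.36, and relative to genes of like intronic length (below) they were at -0.72 and -0.22. Only ANLN was past the limit on those scales. KIF23, the kinesin of the centralspindlin complex that recruits ECT2, was at 76.8 and 84.5 CPM, 0.14 (0.013 to 0.26), and the ratio of KIF23 to ECT2 UMIs changed by 0.85 (0.58 to 1.13).

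The other cytokinesis genes lay within the limit, and the signs of KIF20B and KIF14 changed with the processing. PRC1, which crosslinks antiparallel microtubules, was at 122 and 145 CPM, 0.25 (0.15 to 0.35), and its UMIs per UMI of KIF4A, the kinesin it binds, went from 1.23 to 1.32, a log2 change of 0.097 whose interval holds 0 (-0.049 to 0.24). KIF20A, a kinesin needed for abscission, was at 13.0 and 18.5 CPM, 0.51 (0.22 to 0.79). KIF20B, a related kinesin, was at 105 and 101 CPM, -0.052 (-0.16 to 0.059). KIF14, which localizes citron kinase, was at 108 and 80.8 CPM, -0.42 (-0.54 to -0.30).

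Of the chromosome and helicase genes, MKI67, the proliferation antigen that coats mitotic chromosomes, was at 250.1 and 267 CPM, 0.092 (0.022 to 0.16). TOP2A, the topoisomerase that untangles sister chromatids, was at 291 and 249 CPM, -0.22 (-0.29 to -0.16). PIF1, a DNA helicase, was the lower gene of this group at 20.8 and 13.4 CPM (403 and 127 UMIs), -0.64 (-0.94 to -0.35). Their sum was 562 and 529 CPM, -0.087 (-0.14 to -0.039), and it changed sign to 0.26 with TMM scaling. MKI67 and TOP2A, which are often read as markers of cycling cells, thus differed by less than 1.5-fold between the libraries.

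Genes of mitosis outside the 40 were also counted. Of 121 listed, 120 were measured, with 17 higher (14.2%), 27 lower (22.5%) and a median log2 ratio of -0.11, where 10.7% and 38.4% of all measured genes were higher and lower. ANAPC2 was not measured. In the list of other entry and exit genes, MYBL2, a subunit of the complex that switches on G2 and mitotic genes, had a log2 ratio of 0.92 and PKMYT1, an inhibitory kinase of CDK1, 0.66, while RBL2, a pocket protein, had -0.94 and ENSA, an inhibitor of a CDK1-opposing phosphatase, -1.27. The 21 genes of that list held 3 higher and 7 lower. Among the 17 measured genes of the anaphase-promoting complex and its control, 4 were higher and 2 lower, with the complex subunits ANAPC13 at 1.02, ANAPC15 at 0.99 and ANAPC4 at -0.62, and with FBXO5, its inhibitor EMI1, at -0.78. The higher ratio of CDC20 thus stood beside subunits on both sides of 0.

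The 34 other kinetochore genes held 5 higher and 10 lower, where 10.7% and 38.4% of all measured genes were, here and for the lists that follow. The centromere proteins CENPN and CENPU were at 0.79 and 0.77, and CENPH and CENPI, also of the constitutive centromere network, at -1.16 and -1.86. Genes of this network therefore lay at both ends. The 21 other spindle genes held 3 higher and 5 lower, with the tubulin TUBA1C at 0.94 and the kinesin KIF22 at 0.70, and with the tubulin TUBA1A at -1.53 and the centrosome protein CEP192 at -1.54. The 9 other cytokinesis genes held 1 higher and 3 lower, with DEPDC1 at 0.78, RHOA, the GTPase of the ring, at 0.48, the citron kinase CIT at -1.04 and GAS2L3 at -1.39. The 18 cohesin and condensin genes and their regulators held 1 higher and 0 lower, from NCAPH2 at 1.13 and CDCA5 at 0.45 to SMC3 at -0.36 and NCAPG2 at -0.54.

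The 27 S phase genes had a median log2 ratio of 0.42, with 8 higher (29.6%) and 1 lower (3.70%), where 10.7% and 38.4% of all measured genes were. MCM7, a helicase subunit of the replication fork, was at 152 CPM in control and 381 in SP11, giving a log2 ratio of 1.32, and UHRF1, which guides maintenance of DNA methylation, was at 0.95. TIPIN, of the fork protection complex, was at -0.50 and POLA1, the catalytic subunit of polymerase alpha, at -0.82. The S phase list therefore lay higher than the 40 mitotic genes in this contrast, which was not tested.

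The ratios followed the length of each gene's introns. Over the 40 genes the Spearman correlation of the log2 ratio with the intronic length was -0.55, over 120 other genes of mitosis it was -0.41, and over 12094 measured genes with an annotation it was -0.34. These points share both libraries, and the correlations are descriptions. Of all measured genes, whatever their intronic length, 10.7% were higher and 38.4% were lower. The 20 mitotic genes with the shorter introns (2211 to 24304 bases) had a median log2 ratio of 0.29, with 5 higher and 2 lower. The 20 with the longer introns (27606 to 126210 bases) had -0.25, with 0 higher and 5 lower. Every higher gene, from CDC20 with 2211 intronic bases to CKAP2 with 16653, was thus in the shorter set. The lower genes CDK1, with 12613 bases, and PIF1, with 5381 bases, were the 2 of 7 that were in it too.

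When the median ratio of all measured genes of like intronic length was subtracted, 8 mitotic genes passed the 1.5-fold limit upward and 4 downward, where 17.8% and 23.2% of the 12094 genes were. CDC20 was at 1.55, BIRC5 at 1.14, PLK1 at 1.09, CDC25B at 1.08 and CKAP2 at 0.85, so all 5 stayed higher. TPX2 at 0.93, KIF4A at 0.85 and CCNB2 at 0.68 joined them. CDC25C at -1.21, ANLN at -0.72, PIF1 at -0.65 and CDK1 at -0.62 stayed lower, whereas NUF2 at -0.35, BUB1B at -0.24 and ECT2 at -0.22 no longer passed the limit. The shorter and the longer set then had medians of 0.35 and 0.22. Whether the counting of intronic reads has a part in these ratios was not tested, since the sources name no setting for it.

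**Figure D2:**
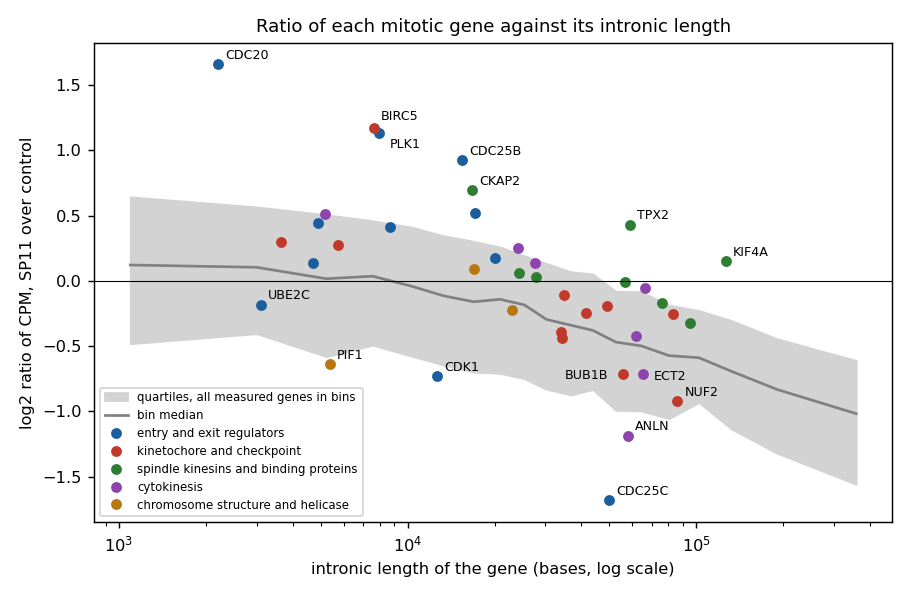
Log2 ratio of CPM in SP11 over control (vertical axis) against intronic length in bases (horizontal axis, log scale) for the 40 mitotic genes, coloured by role. The grey line and band give the median and quartiles of all measured genes in 20 bins of intronic length. CDC20 lies farthest above the line, by 1.55, and CDC25C farthest below it, by a difference of -1.21.

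Single cells were compared at equal depth, since SP11 cells held fewer UMIs. Each cell with at least 4400 UMIs was thinned at random to 4400, which left 963 control and 769 SP11 cells and set aside 90 and 83. At this depth a control cell held a median of 12 UMIs of the 40 genes (quartiles 6 and 23) and an SP11 cell a median of 18 (quartiles 9 and 27). A control cell had UMIs of a median of 9 of the genes, and an SP11 cell of 12. The distribution was narrower in SP11, with a coefficient of variation of 0.609 against 0.848 in control.

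The libraries differed in opposite directions at the ends of this distribution. Cells with at most 5 UMIs of the 40 genes made up 22.5% (19.9 to 25.3) of control and 8.84% (6.93 to 11.1) of SP11 cells. Cells with at least 26 UMIs, the 0.75 quantile of both libraries together, made up 22.2% (19.6 to 24.98) and 29.6% (26.4 to 33.0). Cells with at least 40 UMIs made up 10.4% (8.53 to 12.5) of control but 6.11% (4.52 to 8.04) of SP11 cells, and the 0.9 quantile was 40 UMIs in control and 36 in SP11. Relative to all UMIs, SP11 thus held fewer cells at both the low and the very high end. The same order held at a depth of 2000 UMIs, with medians of 5 and 8 and 0.9 quantiles of 18 and 17, and at 8000 UMIs, with medians of 21 and 35 and 0.9 quantiles of 70 and 64. The depth was varied here but not the scale. TMM scaling, which moved every log2 ratio up by 0.34, was not applied to these sums per cell. Whether the smaller share of SP11 cells at the very high end would hold on that scale was not tested. These ranges are bounds on a sum and not cell types or phases, and they give no rate of division.

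**Figure D3:**
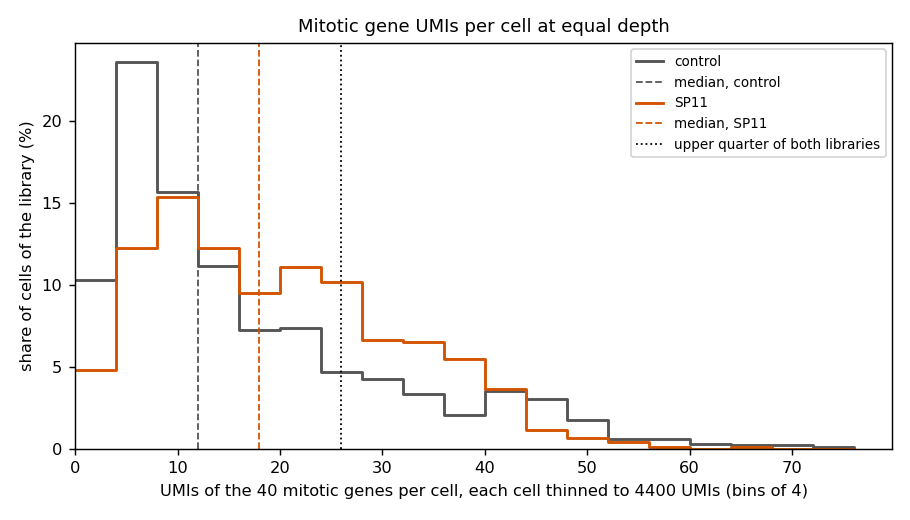
Share of cells of each library (vertical axis, %) by the number of UMIs of the 40 mitotic genes per cell (horizontal axis, bins of 4 UMIs), each cell thinned to 4400 UMIs, for 963 control and 769 SP11 cells. Dashed lines mark the medians of 12 and 18 UMIs and the dotted line the bound of 26 UMIs. The control curve is higher below 12 UMIs and again from 44 UMIs on, and the SP11 curve is higher between.

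Gene by gene, the share of cells with at least 1 UMI at this depth was higher in SP11 for 14 of the 40 genes, with intervals that do not overlap, and lower for 4. Over all measured genes these shares were 12.1% and 28.5%. A lower level in a library can come from fewer cells with the RNA or from less RNA per cell, and the share and the UMIs per positive cell were both taken for that reason. CDC20 was found in 21.0% (18.4 to 23.7) of control and 47.7% (44.1 to 51.3) of SP11 cells, and positive cells held 1.22 and 1.64 UMIs on average. PLK1 was found in 17.8% and 36.3% of cells with 1.40 and 1.63 UMIs, and BIRC5 in 21.7% and 43.0% with 1.21 and 1.44 UMIs. For these genes both quantities were higher in SP11. With so few UMIs per cell a higher mean raises both, so they do not separate more cells with the RNA from more RNA per cell.

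The other genes found in a larger share of SP11 cells were CCNB1, CCNB2, CDC25B, AURKA, PTTG1, KIF4A, TPX2, CKAP2, KIF20A, PRC1 and MKI67. TPX2 was found in 64.6% (61.5 to 67.6) and 79.7% (76.7 to 82.5) of cells, with 2.82 and 3.39 UMIs per positive cell. CCNB1 was found in 24.6% and 36.3%, with 1.45 and 1.44 UMIs, and MKI67 in 50.1% and 61.6%, with 1.96 and 1.90 UMIs. For CCNB1 and MKI67 the share at this depth was thus higher while the UMIs per positive cell were close. The ratio of MKI67 in all kept cells changed sign with the processing, and no direction of its level is read from this share. KIF20A was the least often found of these, in 4.15% (2.98 to 5.61) and 8.58% (6.70 to 10.8) of cells.

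The 4 genes found in a smaller share of SP11 cells were CDC25C, ANLN, NUF2 and BUB1B. CDC25C was found in 6.13% (4.70 to 7.83) of control and 2.21% (1.29 to 3.52) of SP11 cells. ANLN was found in 27.0% (24.2 to 29.9) and 15.3% (12.9 to 18.1), and positive cells held 1.30 and 1.06 UMIs. NUF2 went from 22.7% to 15.1% and BUB1B from 30.3% to 23.1%. CDK1, at 16.4% (14.1 to 18.9) and 12.4% (10.1 to 14.9), had overlapping intervals. Without thinning the shares were higher in SP11 for 5 genes and lower for 20, with CDC20 in 45.3% of control and 64.8% of SP11 cells and ANLN in 55.0% and 29.8%. RNA free in the droplets also gives UMIs, and no cell population that should lack these genes was at hand to measure it.

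**Figure D4:**
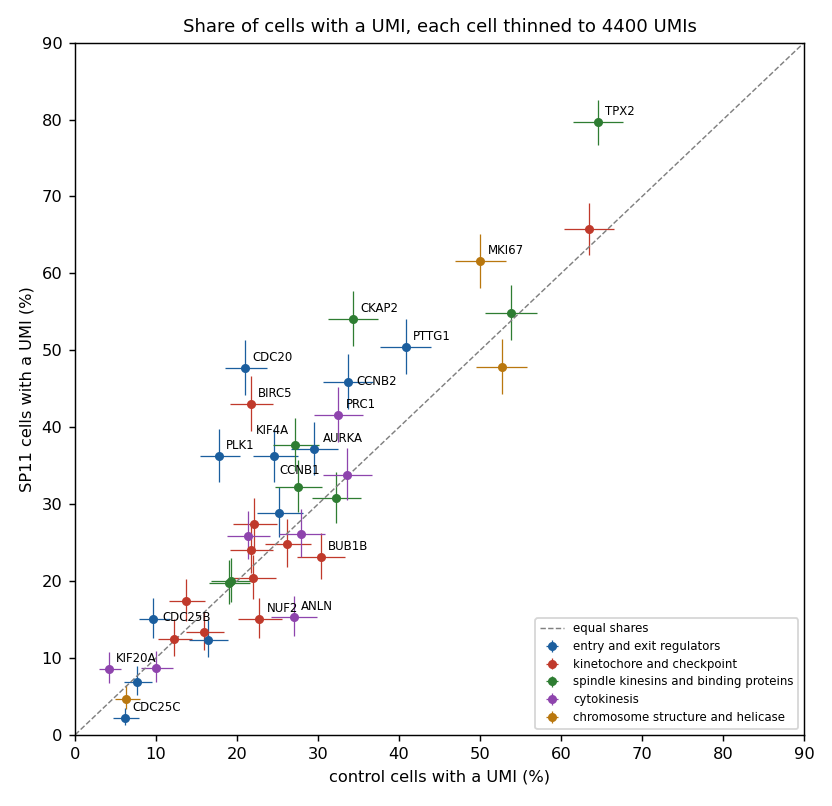
Share of SP11 cells (vertical axis, %) against share of control cells (horizontal axis, %) with at least 1 UMI of each of the 40 mitotic genes, each cell thinned to 4400 UMIs, with 95% binomial intervals. Points above the dashed line were found in a larger share of SP11 cells. The 18 genes whose intervals do not overlap are named, with CDC20 at 21.0% and 47.7%.

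The genes were then compared in the cells that express mitotic genes. For each gene, cells were taken whose thinned UMIs of the other genes of the list reached the 0.75 quantile of both libraries together, so that the gene compared had no part in choosing the cells. This gave 207 to 232 control and 221 to 245 SP11 cells. In these cells the median log2 ratio of the 40 genes was -0.34, against -0.25 over the 9695 genes with at least 50 UMIs there. At least 1.5-fold higher in SP11 were 4 genes, where 11.4% of those genes were, and lower were 12, where 32.1% were. Both counts are near that background. The high cells had a median of 22678.5 UMIs in control and 12329 in SP11, with mitochondrial shares of 8.48% and 5.07%. With no upper bound, they also differed in mitotic RNA, with a median of 38 UMIs of the 40 genes in control and 33 in SP11 at equal depth. The part of these differences in the ratios, also in those of genes lower only in the high cells, was not tested. With 58 control and 87 SP11 cells within 2 UMIs of the bound of 26, the high cells are a range and not a type.

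The genes that were higher in the high cells came from those that were higher in all cells. The high cells are a part of all kept cells, so both comparisons share UMIs and are not independent. CDC20 was at 108 CPM in the high control cells and 261 CPM in the high SP11 cells, a log2 ratio of 1.27 (1.12 to 1.43). BIRC5 was at 121 and 202 CPM, 0.74 (0.58 to 0.90), PLK1 at 162 and 257 CPM, 0.67 (0.53 to 0.81), and CDC25B at 44.9 and 74.0 CPM, 0.72 (0.45 to 0.99). CKAP2, higher in all cells as well, was at 0.35 (0.22 to 0.47) here.

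All 7 genes that were lower in all cells were lower in the high cells too, again with shared UMIs. CDC25C was at 36.5 and 8.85 CPM, -2.05 (-2.68 to -1.46), from 186 and 27 UMIs. ANLN was at 171 and 62.0 CPM, -1.46 (-1.70 to -1.23), and NUF2 at 137 and 60.5 CPM, -1.18 (-1.42 to -0.94). CDK1 was at 126 and 59.0 CPM, -1.09 (-1.33 to -0.85), PIF1 at -1.03, BUB1B at -0.94 and ECT2 at -0.89. The other 5, which lay within the limit in all cells, were KIF14 at -0.79, BUB1 at -0.72, CENPE at -0.68, CENPF at -0.67 and TTK at -0.62. With TMM scaling, which moved ratios in the high cells up by 0.27, these 5 were within the limit, from -0.52 for KIF14 to -0.35 for TTK, and the 7 remained lower. CENPF, the most abundant of them, was at 744 CPM in high control and 469 CPM in high SP11 cells. The B-type cyclins were within the limit, CCNB1 at -0.074 (-0.22 to 0.073) and CCNB2 at 0.096 (-0.049 to 0.24), as was TPX2 at 0.031 (-0.035 to 0.097).

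In the cells at the other end, at or under 7 UMIs of the other genes, 8 of the 40 genes were higher and 8 lower over 326 to 360 control and 131 to 161 SP11 cells. Of the 36 genes with at least 50 UMIs there, 8 were higher and 6 lower, where 12.7% and 37.5% of the 9587 genes with as many UMIs were. Their median log2 ratio was 0.17, against -0.32 over those 9587 genes. CDC25C, UBE2C, KIF20A and PIF1 had fewer UMIs there, PIF1 with 10 over both libraries. PLK1 was at 6.29 CPM in low control and 18.4 CPM in low SP11 cells, 1.55 (0.76 to 2.32), CDC20 at 21.1 and 56.0 CPM, 1.41 (0.99 to 1.82), and BIRC5 at 21.9 and 57.3 CPM, 1.39 (0.97 to 1.79). CCNB1, within the limit in all cells and in the high cells, was at 19.5 and 35.0 CPM here, 0.85 (0.34 to 1.34). BUB1 was at 33.6 and 14.0 CPM, -1.26 (-2.002 to -0.59), and NUF2 at -1.20 (-2.08 to -0.42). ANLN was at -0.94 (-1.66 to -0.30), whereas CDK1, lower in all cells and in the high cells, was at 0.21 (-0.45 to 0.82), an interval that holds 0.

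**Figure D5:**
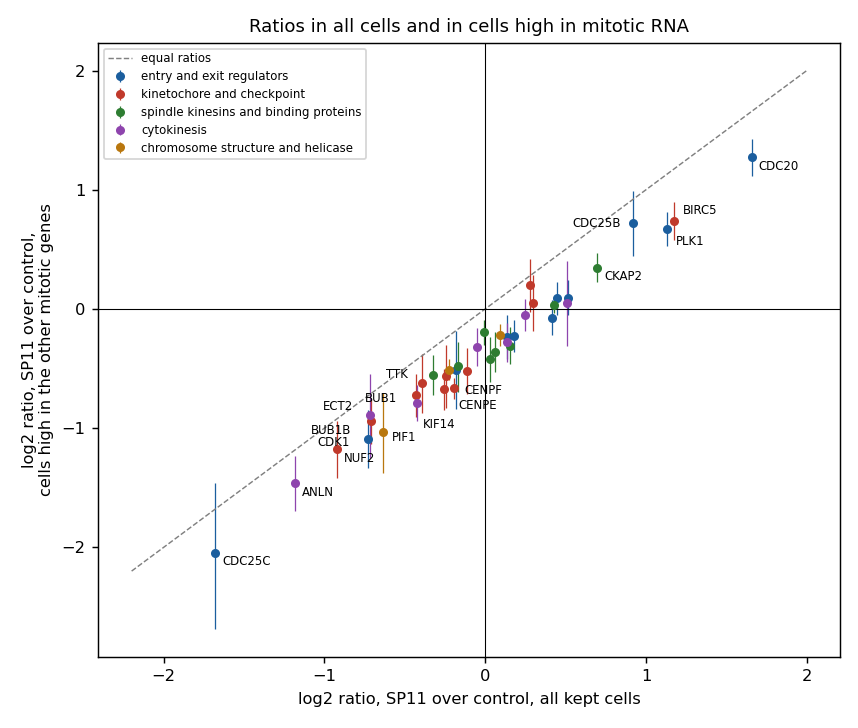
Log2 ratio of SP11 over control in cells high in the other mitotic genes (vertical axis, with 95% counting intervals) against the log2 ratio in all kept cells (horizontal axis) for the 40 genes, coloured by role. The dashed line marks equal ratios, and the points lie under it. High control cells held more UMIs of the 40 genes than high SP11 cells, with medians of 38 and 33 at equal depth. Named genes are at least 1.5-fold apart on either axis, from CDC25C at -2.05 to CDC20 at 1.27 in the high cells.

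The contrast between high and low cells within a library was smaller in SP11 for most genes. The median of the log2 ratio of high over low cells was 2.69 in control and 2.24 in SP11. It was larger in control for 34 of 40 genes, 8 of them with intervals that do not overlap, namely CCNB1, CDK1, CENPF, BIRC5, KIF4A, TPX2, CKAP2 and MKI67, and larger in SP11 for 6 genes, 0 of them with separate intervals. The same counts were not taken over all measured genes, so whether they are particular to the mitotic genes is not known. CCNB1 was at 3.38 (3.09 to 3.68) in control and 2.46 (2.05 to 2.90) in SP11, CDK1 at 2.83 and 1.53, and KIF4A at 2.84 and 1.77. These 8 genes came from 4 of the role groups. MAD2L1 had the smallest contrast in both libraries, at 0.98 and 0.67, and PIF1 the largest, at 5.29 and 5.49, the latter from 1 UMI in the low SP11 cells. Control cells at the low end had a median of 16051.5 UMIs and SP11 cells 10425, and the same bound in UMIs takes 326 of the 963 control cells and 131 of the 769 SP11 cells, so the low cells are not the same part of each library. At equal depth the high cells held a median of 38 UMIs of the 40 genes in control and 33 in SP11, and the low cells 5 in both. The cells were chosen by these same genes, so the contrast is not independent of that choice.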

How the data were processed

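Single-cell RNA-seq libraries of control and SP11 cells, grouped by the labels' treatment field, were used. The authors deposited counts of UMIs, by gene and by barcode, which had not been normalized. Cell Ranger 7.1.0 made them per the file headers, on GRCh38 according to the submitters' processing notes. Whether intronic reads were counted, and whether a library pooled cultures, was not stated. The study's stated filters (at least 200 genes, at most 20% mitochondrial UMIs) were applied. They left more cells than the study kept, mainly in control, so the control cells are not the study's exact set. UMIs were summed per gene and library over kept cells (control 19375163, SP11 9498802 UMIs), divided by the total and compared as a log2 ratio, with a 95% Clopper-Pearson interval (exact) for how the UMIs of that gene divide between the libraries. Shares of cells carry exact binomial intervals. A count of 0 allows up to 3 UMIs, or 0.155 CPM in control and 0.316 in SP11. UMIs are molecules, and intervals and limits cover counting error only.

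The genes named are every listed gene, and for each list of other genes up to 2 from each end of the ratios. The listed genes, the other lists, the markers and the pairs were chosen with earlier results of these data known. Intronic lengths came from GENCODE 44, and the trend is the median ratio in 20 bins of length. Thinning was random without replacement. Scrublet in scanpy 1.11.5 called 45 control and 21 SP11 cells as doublets, which were kept. Versions were numpy 2.4.6, scipy 1.17.1, pandas 2.3.3, R 4.3.3, edgeR 4.0.16 for TMM and DESeq2 1.42.0 for size factors, without a test. The interval and thinning code was tested on simulated data. The alternatives were other filters on cells and genes, totals without mitochondrial genes, equal weight per cell, TMM and DESeq2 scaling, the intronic trend, 2-fold limits, other thinning depths, other bounds for high cells and removal of doublet calls. Removal of shared barcodes was added after the data were seen. Promoter windows came from RefSeq. The mouse experiment was not analysed here.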

Additional observations from a re-analysis of the deposited data

How the results depend on the processing

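No paired analysis was possible because each group has 1 library, and for the same reason no fit without a replicate was run. Of the 40 genes, 5 of the 5 higher and 7 of the 7 lower kept their direction under every alternative, and no called value changed sign.

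Counts moved mostly with the scale. Against 5 higher and 7 lower mitotic genes, TMM scaling, DESeq2 scaling and ratios relative to the median gene each gave 13 higher and 2 lower, subtraction of the intronic trend 8 and 4, and the 2-fold limit 3 and 2. For other mitotic genes, against 17 higher and 27 lower, TMM gave 39 and 11, DESeq2 39 and 10, the median gene 39 and 11 and the intronic trend 29 and 13, and equal weight per cell gave 17 lower. Shares of cells, 14 higher and 4 lower, became 8 and 2 at 2000 UMIs and 5 and 20 without thinning. In high cells, 12 lower became 7 with TMM.

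Summed log2 ratios moved as follows. For all 40 genes, 0.13 became -0.00025 at a mitochondrial maximum of 10%, 0.15 without shared barcodes, 0.47 with TMM, 0.49 with DESeq2, 0.073 with totals without mitochondrial genes, 0.23 with equal weight per cell and 0.41 with the intronic trend. In the same order of settings, but without the shared barcodes, the regulators' 0.51 became 0.41, 0.86, 0.88, 0.46 and 0.57, the kinetochore genes' -0.11 became -0.25, 0.23, 0.25, -0.17, -0.0074 and 0.22, the spindle genes' 0.23 became 0.11, 0.58, 0.60, 0.18, 0.36 and 0.68, the cytokinesis genes' -0.16 became -0.29, 0.19, 0.21, -0.21, -0.062 and 0.18, and the chromosome genes' -0.09 became -0.23, 0.26, 0.28, -0.14, -0.031 and 0.080. The regulators' value with the intronic trend moved by less than its interval. The cause of these changes was not tested beyond what each setting does to the scale. Depth limits CDC25C, with 52 SP11 UMIs, and every gene in the low cells.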
